A study of Chrysanthemum x morifolium with 40 samples.

Results

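Roots of the chrysanthemum cultivar CK that had been waterlogged for 24 h and returned to air for 3 h (24_3 h) were compared with CK roots that had never been flooded (0 h), to describe which transcripts were away from their starting level after reoxygenation. The comparison rests on the 8 CK libraries labelled 0 h and 24_3 h, 4 in each group, of 40 libraries in all. CK is 'zaoxiaoyangju', a conventional, waterlogging-sensitive 'Hangju' (Chrysanthemum × morifolium), and the other cultivar of the series, EWT, is a waterlogging-tolerant 'Hangju'. Seedlings of both cultivars were 8 weeks old and were submerged until the water stood 2 cm over their upper leaves, and poly-A mRNA of the roots was sequenced before flooding (0 h), after 3 h, 12 h and 24 h under water, and at 24_3 h. Both cultivars are unmodified and both groups of CK plants received no other agent. The labels name 4 libraries for each group and time, and the paper calls them biological replicates. Neither says that each came from separate plants, so the p-values measure the spread between these samples. Never-flooded roots were taken at 0 h alone, so flooding followed by reoxygenation cannot be told apart from growth over the same hours or from a different hour of the day.

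Water around a root slows the supply of oxygen so strongly that mitochondrial respiration is limited, and root cells then make ATP by glycolysis with fermentation, in which pyruvate decarboxylase and alcohol dehydrogenase turn pyruvate into ethanol and lactate dehydrogenase turns it into lactate. In Arabidopsis, plant cysteine oxidases use oxygen to mark the group VII ethylene response factors for breakdown, and these factors switch on the fermentation genes when oxygen is low. When the water is removed, oxygen returns quickly, and the tissue meets a burst of reactive oxygen species while its ATP, its water uptake and its growth machinery are still those of the flooded state. Transcripts of this programme are known from Arabidopsis and rice to decline within hours of reaeration, while others appear only after air returns.

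The 8 libraries held 3860195 to 7588620 fragments assigned to genes. The 4 libraries of 24_3 h were not alike in depth, since replicate 4 held 7246976 fragments and replicates 1 to 3 held 3860195 to 4266489, against 5361802 to 7588620 at 0 h. Replicate 4 also lay nearest to the unflooded roots. Its Pearson correlations with the 0 h libraries, over the log2 values of 89517 genes, were 0.791 to 0.801, and those of replicates 1 to 3 were 0.693 to 0.741. Correlations among the 0 h libraries were 0.907 to 0.913 and among the 24_3 h libraries 0.853 to 0.877. The labels give no batch that sets replicate 4 apart. Where leaving out 1 library moves a count of more than 3 genes by over 1.5 times, the count without that library is given beside it, and a count of 3 genes or fewer can turn on a single library.

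Values are FPKM, fragments scaled by gene length and by a library size. Differences are on the scale log2(FPKM + 0.1) from limma with its standard error (SE). The library size was not the total of assigned fragments. It was 1.14 to 1.23 times that total at CK 0 h, 0.84 to 0.91 times at CK 24 h and 1.18 to 1.22 times at CK 24_3 h. An equal share of fragments thus has a higher FPKM at 24 h. The comparisons with 24 h were not run under another scaling. Among 89517 genes that reached 1 FPKM in 4 or more libraries, 10824 (12.1%) were higher at 24_3 h and 16876 (18.9%) were lower by the thresholds for differentially expressed genes (DEGs), a 2-fold difference with an unadjusted p of at most 0.05. With p adjusted by Benjamini-Hochberg over all tested genes, 9138 (10.2%) rose and 14217 (15.9%) fell, and the median over all tested genes was -0.04. Genes are called by this adjusted rule from here on, and the median given for a list is the median log2 difference from 0 h over its tested members. The calls stood beside those at 24 h against 0 h, where 18280 (20.4%) rose and 25558 (28.6%) fell, and those at 24_3 h against 24 h, where 12661 (14.1%) rose and 11926 (13.3%) fell in the 3 h of air. All 4 libraries of 24_3 h lay above all 4 of 0 h for 10938 genes (12.2%) and below them for 16822 (18.8%), and the call and the separation went together for 7188 (8.03%) and 12317 (13.8%). For single genes whose 4 libraries a group do not overlap, the two-sided exact permutation test gives p = 0.0286, the smallest that 4 against 4 allows.

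The lists below were set by words in the protein name of each gene's match in Swiss-Prot, which comes from other species, mainly Arabidopsis. Many gene models share a protein name in this polyploid genome, and near-identical copies may share reads, so that the split between copies is uncertain while a list's total is less so. The share of members called in each direction differed widely between lists. The percentages of all tested genes given above are the background for each count.

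**Figure D1:**
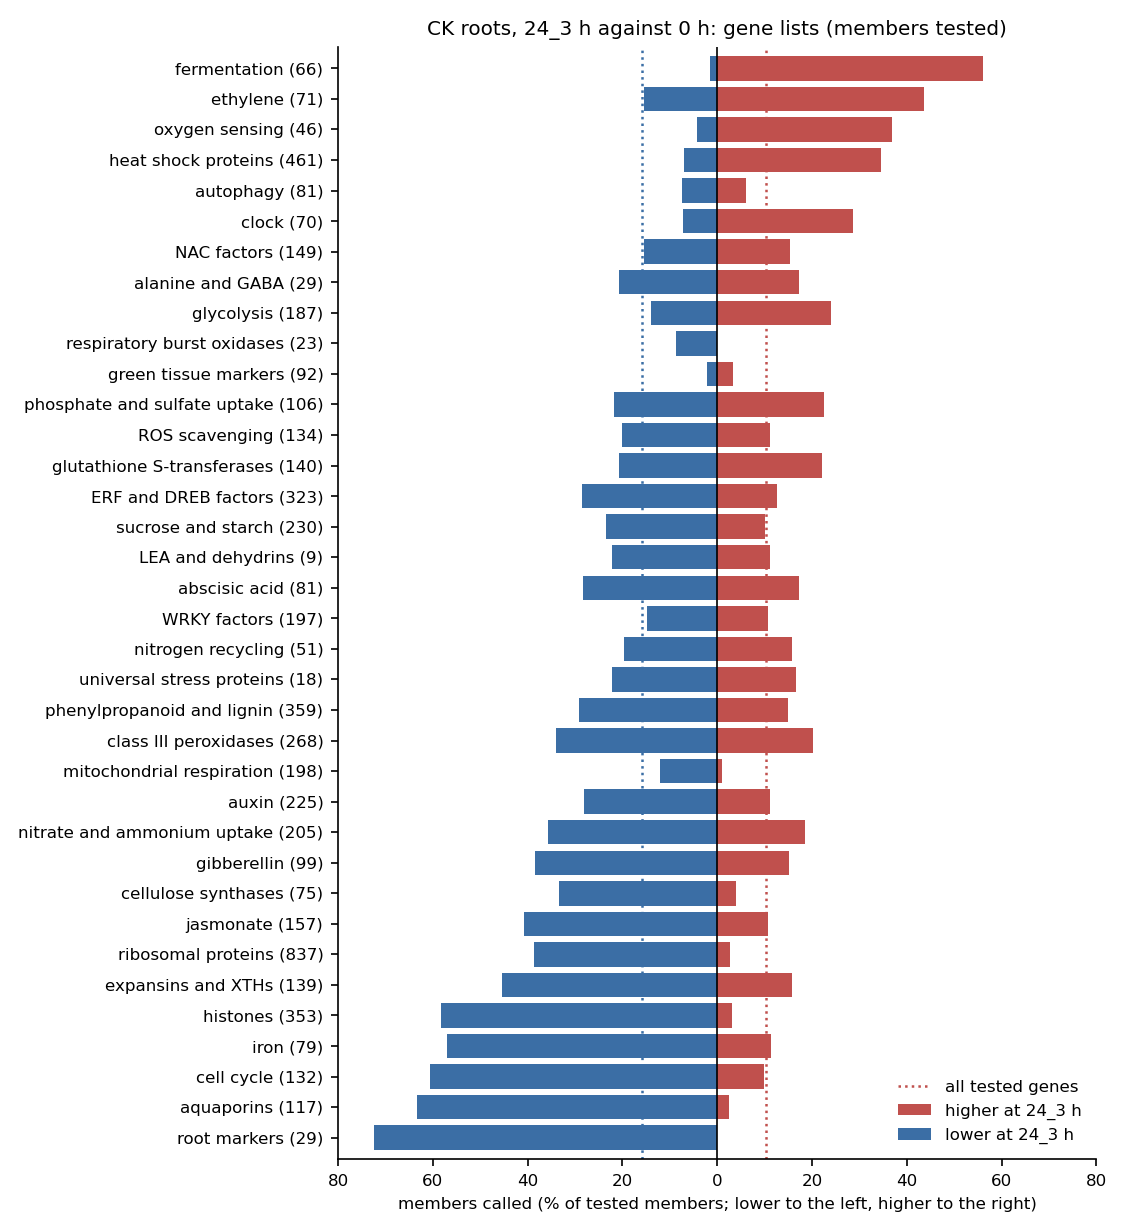
Share of tested members of each gene list called at 24_3 h against 0 h in CK roots (percent; higher to the right, lower to the left; adjusted p of at most 0.05 and 2-fold), with the number tested in parentheses; dotted lines mark all tested genes (10.2% higher, 15.9% lower). Fermentation, oxygen sensing, heat shock and ethylene genes have the longer bar to the right, and root markers, aquaporins, cell cycle genes, histones and iron genes have it to the left.

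The named genes with the largest rises were almost silent in unflooded roots and abundant after reoxygenation. An early nodulin-93 gene (chromosome 2, bases 205577391 to 205583995, in the numbering of the deposited table) stood at 0, 1.09, 0 and 0 FPKM in the 4 libraries of 0 h and at 1682, 1442, 1151 and 884 FPKM in those of 24_3 h. This is a small protein first found in legume root nodules, and its difference was the largest of any named gene, 12.72 (SE 0.43, adjusted p = 4.19e-23). At 24 h it stood at 1917 ± 329 FPKM (SD, n = 4), and the log2 difference of 24_3 h from 24 h was -0.60 with a 95% interval of -1.46 to 0.27. A shorter gene model on chromosome 1, matched to heat shock cognate 70 kDa protein 1 but carrying an early nodulin 93 domain in the annotation as well, went from 0, 0, 0.285 and 0 FPKM to 402, 318, 259.6 and 219 FPKM, a difference of 11.03 (SE 0.31, adjusted p = 2.48e-25), and its protein name is therefore doubtful.

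Homologues of protease inhibitors followed in size. A gene matched to miraculin, a taste-modifying protein of the Kunitz inhibitor fold, stood at 0.313, 0, 0.174 and 0 FPKM at 0 h and at 539, 578, 395 and 509 FPKM at 24_3 h. A gene matched to Kunitz trypsin inhibitor 5 stood at 0.307, 1.29, 0.681 and 0.752 FPKM and 2028, 2158, 1665 and 1869.5 FPKM, with a difference of 11.26 (SE 0.25, adjusted p = 1.56e-28). The values within each group are close together, while large differences between separate groups were part of the rule that named these genes. Non-symbiotic hemoglobin 2, an oxygen-binding protein of stressed roots, rose from 0, 0.365, 0.651 and 0.160 FPKM to 589, 499, 524 and 364 FPKM, a difference of 10.62 (SE 0.40, adjusted p = 1.28e-21). It had been at 1293 ± 22.3 FPKM at 24 h, and its fall in the 3 h of air was -1.41 (SE 0.40, adjusted p = 0.00584). 

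Small heat shock proteins, chaperones that hold unfolded proteins, supplied the remaining named rises, and each was at 0 in all 4 libraries of 0 h. The 17.9 kDa class II protein stood at 187, 227, 266 and 102 FPKM at 24_3 h, at least 899-fold higher than 3 fragments spread over the 0 h group would give. The 17.3 kDa class I protein stood at 231, 120, 132 and 66.95 FPKM, at least 628-fold higher, and the 18.1 kDa class I protein stood at 134, 71.05, 99.6 and 38.7 FPKM, at least 339-fold higher. In all 3 genes replicate 4 held the lowest value of the 24_3 h group. Among genes with no protein name, evm_TU_scaffold_1659_273 and a gene on chromosome 7 (bases 239664444 to 239665256) rose most, at least 2390.3-fold and at least 2562-fold higher against the same floor.

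The named genes with the largest falls were nearly the reverse, present in unflooded roots and close to 0 after reoxygenation. Aquaporin TIP2-1, a channel that passes water and ammonia across the vacuole membrane, stood at 87.7, 84.2, 109 and 153 FPKM at 0 h and at 0.407, 0.184, 0 and 0 FPKM at 24_3 h (chromosome 3, bases 82182327 to 82183907), where 3 fragments remained in the whole group, and its fitted difference was -9.08 (SE 0.78, adjusted p = 1.40e-11). Against those 3 fragments the ratio of 0 h to 24_3 h was 733, with a 95% counting interval of 251 to 3556. Gibberellin-regulated protein 4, a small cysteine-rich protein of growing tissue, stood at 281, 204, 244 and 522 FPKM and 2.21, 4.01, 0 and 1.14 FPKM, a difference of -8.13 (SE 1.08, adjusted p = 2.04e-07). Flavonoid 3',5'-hydroxylase, a cytochrome P450 of flavonoid synthesis, went from 38.8, 22.5, 37.3 and 58.7 FPKM to 0, 0, 0.238 and 0 FPKM. Groups that do not overlap were a condition for naming these genes.

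Other large falls belong to the wall or the cell surface. XTH6, an enzyme that cuts and rejoins xyloglucan chains, stood at 37.96, 54.3, 32.8 and 18.02 FPKM at 0 h and 0, 0, 0 and 0.351 FPKM at 24_3 h. Endoglucanase 17, a glucan-cutting enzyme, stood at 25.7, 31.8, 49.9 and 51.3 FPKM and 0.290, 0, 0 and 0.299 FPKM, a difference of -7.58 (SE 0.59, adjusted p = 1.21e-12). The surface-anchored lipid transfer protein LTPG21 stood at 63.5, 69.4, 50.4 and 58.2 FPKM and 0, 0, 0.593 and 0.862 FPKM, a difference of -7.72 (SE 0.57, adjusted p = 2.23e-13). LTPG5, of the same family, was at 0 in all 4 libraries of 24_3 h, at least 98.7-fold lower than its 17.9, 14.9, 25.01 and 22.8 FPKM at 0 h. A gene matched to pollen-specific protein C13 was also at 0 there, at least 229.8-fold lower. Among genes with no protein name, evm_TU_scaffold_902_73 and evm_TU_scaffold_4060_100 fell most, at least 112-fold and at least 61.4-fold lower. At 24 h, XTH6, flavonoid 3',5'-hydroxylase, LTPG21 and pollen-specific protein C13 were at 0 in all 4 libraries, before air returned.

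**Figure D2:**
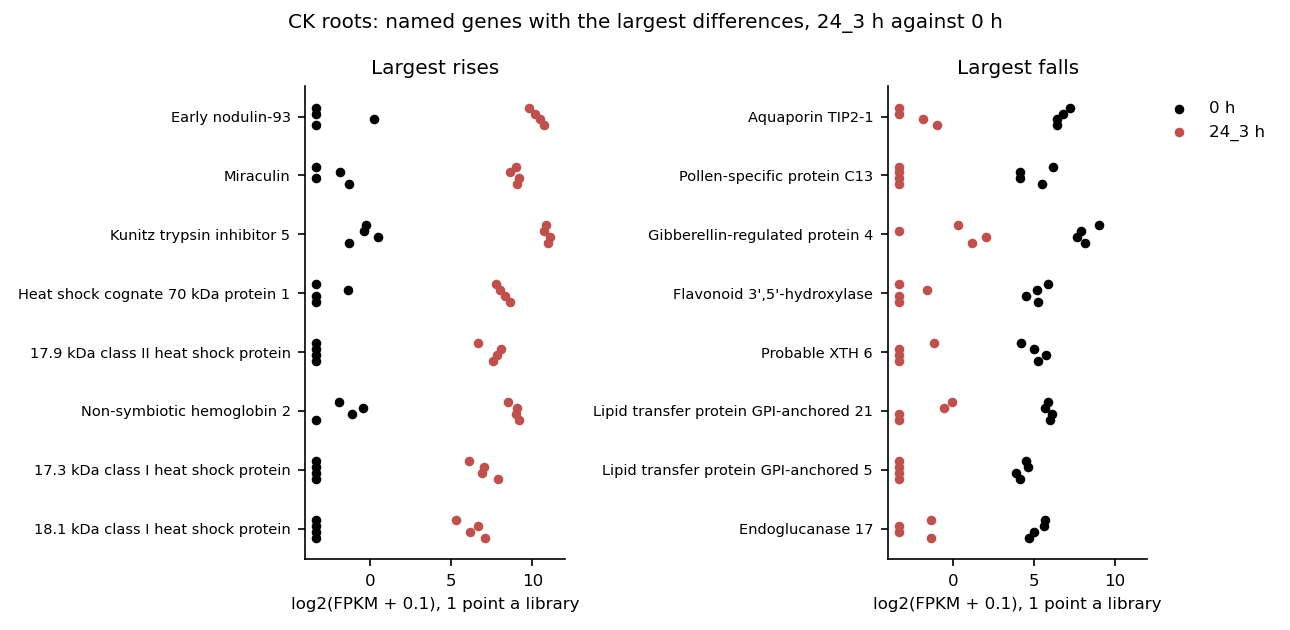
Level of the 8 named genes with the largest rises and the 8 with the largest falls in CK roots, as log2(FPKM + 0.1), with 1 point for each of the 4 libraries of 0 h and of 24_3 h. Groups that do not overlap were a condition for the choice of the 16 genes, and a value of about -3.3 stands for an FPKM of 0.

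Fermentation genes stood far above their unflooded level. Of 66 tested members, 37 rose, 1 fell and 28 were not called, with a median difference of 2.91, or 3.33 when each gene absent from one of the groups takes its bound. Summed over all genes of the list, the level was 420.4 to 494 FPKM at 0 h, 20015 to 27013 FPKM at 24 h and 7078 to 13839 FPKM at 24_3 h. The 24_3 h libraries thus lay between both other groups without overlap. Pyruvate decarboxylase, which makes acetaldehyde, gave 17 rises of 26 genes with a median of 5.47, beside 6.29 at 24 h. Alcohol dehydrogenase 1, which reduces it to ethanol, gave 12 of 16 with a median of 6.89, beside 8.13. All 6 L-lactate dehydrogenase genes rose.

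The most abundant members show the course. A pyruvate decarboxylase 1 gene (chromosome 12, bases 115816953 to 115819862) stood at 19.6, 25.2, 22.6 and 21.3 FPKM at 0 h and at 1563, 1358, 1046 and 701 FPKM at 24_3 h, a difference of 5.65 (SE 0.20, adjusted p = 3.03e-22), after 3357 ± 549 FPKM at 24 h. An alcohol dehydrogenase 1 gene (chromosome 2, bases 19713978 to 19715974) stood at 9.95, 21.4, 11.7 and 7.22 FPKM and 1401, 1178, 970.3 and 759.9 FPKM, a difference of 6.49 (SE 0.23, adjusted p = 3.18e-22). A pyruvate decarboxylase 2 gene stood at 11.5, 19.9, 13.1 and 10.8 FPKM and 1445, 1163, 909 and 692 FPKM, a difference of 6.23 (SE 0.20, adjusted p = 9.55e-24). From 24 h to 24_3 h their log2 differences were -1.57, -1.18 and -0.78, the last short of 2-fold, and their 24_3 h means still stood 52.6-fold, 85.7-fold and 76.05-fold above the 0 h means. In all 3 genes replicate 4 was the lowest of the 24_3 h libraries and lay far above every 0 h library.

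Oxygen sensing genes rose in part. Of 46 members, 17 rose and 2 fell, with a median of 0.67. Of 13 plant cysteine oxidase genes, 8 rose (median 1.49, beside 2.29 at 24 h), and of 14 hemoglobin genes, 9 rose (median 3.33, beside 4.49). Few genes of the RAP2 factors were called. Of 19 genes matched to RAP2-2 or RAP2-3, group VII factors, 1 fell and the rest were not called. Of 4 genes matched to ERF071, the Arabidopsis group VII factor also called HRE2, which stand in the list of ERF factors, 3 rose and 1 fell, with a median of 3.44 beside 5.45 at 24 h. The most abundant RAP2 gene stood at 229, 271, 284 and 252 FPKM at 0 h and 278, 297, 290.4 and 546 FPKM at 24_3 h, a difference of 0.39 (SE 0.17, adjusted p = 0.0782), and a further RAP2-2 gene stood at 167, 175, 199 and 200.2 and 165, 178, 195 and 364 FPKM, a difference of 0.21 (SE 0.18, adjusted p = 0.423) with a 95% interval of -0.15 to 0.57. In both, replicates 1 to 3 of 24_3 h were near the 0 h values and replicate 4 stood alone above them.

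Sugar use changed gene by gene. Of 187 glycolysis genes, 45 (24.1%) rose and 26 (13.9%) fell, with a median of 0.03. Cytosolic glyceraldehyde-3-phosphate dehydrogenase gave 16 rises and 3 falls of 33 genes, and its most abundant gene stood at 470.2, 488, 475 and 530.2 FPKM at 0 h and 2427, 2524, 1894 and 1938 FPKM at 24_3 h, a difference of 2.15 (SE 0.14, adjusted p = 1.41e-14). The most abundant enolase 1 gene, of the step before phosphoenolpyruvate, stood at 164, 127, 187 and 236 FPKM and 1682, 1496, 989 and 855 FPKM, a difference of 2.79 (SE 0.22, adjusted p = 1.84e-12). Both groups are separate in each of these genes, with replicates 3 and 4 the lower pair at 24_3 h. Of 230 sucrose and starch genes, 23 (10%) rose, a share near that of all tested genes, and 54 (23.5%) fell.

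Both routes of sucrose breakdown moved differently. Sucrose synthase, which splits sucrose while saving its bond energy as UDP-glucose, gave 9 rises and 6 falls of 25 genes. Its most abundant gene stood at 166, 196, 174 and 154 FPKM at 0 h and 981, 813, 784 and 522 FPKM at 24_3 h, a difference of 2.14 (SE 0.20, adjusted p = 1.26e-10). All 15 genes of the soluble acid invertase of the vacuole, which splits sucrose by water, fell, with a median of -2.29 beside -5.69 at 24 h, and 12 of them rose between 24 h and 24_3 h. Leaving out 1 library at a time, 10 to 15 of the invertase genes were called. The fewest were without replicate 3 of 24_3 h, and without replicate 4 of 24_3 h there were 14.

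Genes of mitochondrial respiration were mostly not called. Of 198 members, 2 rose, 24 fell and 172 were not called, with a median of -0.41. Without replicate 4 of 0 h the falls numbered 12 and without replicate 1 of 24_3 h they numbered 14. At 24 h, 74 had been lower than at 0 h. The most abundant gene of ATP synthase subunit beta, the catalytic part, stood at 181, 163, 183 and 237 FPKM at 0 h, 27.2 ± 4.12 FPKM at 24 h and 88.7, 87.5, 92.8 and 125 FPKM at 24_3 h. Its difference of -0.96 (SE 0.19, adjusted p = 1.51e-04) is just short of 2-fold and so is not called, although the groups do not overlap. A cytochrome c oxidase subunit 5b-1 gene, of the complex that hands electrons to oxygen, stood at 150.3, 136, 139 and 203 FPKM and 146, 178, 165 and 194 FPKM, a difference of 0.13 (SE 0.17, adjusted p = 0.647) with a 95% interval of -0.22 to 0.48. For alanine and GABA metabolism, which stores carbon and nitrogen under low oxygen, 5 of 29 rose and 6 fell, a split that turns under 4 settings. Alanine aminotransferase 2 stood at 93.9, 101, 87.4 and 104 FPKM and 251, 224, 246 and 208 FPKM (1.26, SE 0.14, adjusted p = 2.99e-09), and glutamate decarboxylase at 209.7, 246, 222 and 236 FPKM and 140.2, 188, 95.96 and 129.9 FPKM (-0.76, SE 0.24, adjusted p = 0.0148), which is short of 2-fold.

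Genes that scavenge reactive oxygen species were called about as often as all tested genes. Of 134, 15 (11.2%) rose and 27 (20.1%) fell, and single genes changed strongly in each direction. Mitochondrial manganese superoxide dismutase, which turns superoxide into hydrogen peroxide, gave 5 rises of 11 genes, and its most abundant gene (chromosome 9, bases 242516223 to 242520101) stood at 38.9, 40.5, 40.3 and 44.4 FPKM at 0 h and 924, 772, 720 and 564 FPKM at 24_3 h, a difference of 4.16 (SE 0.15, adjusted p = 7.07e-22). Of 14 genes of catalase, which removes hydrogen peroxide, 5 fell and 9 were not called, with a median of 0.25. The most abundant gene stood at 440, 713, 524 and 370.1 FPKM and 17.2, 36.5, 37.5 and 186 FPKM, a difference of -3.44 (SE 0.46, adjusted p = 2.14e-07), and replicate 4 held several times the level of replicates 1 to 3. A monodehydroascorbate reductase gene, which recycles ascorbate, stood at 188, 211, 228 and 246 FPKM and 439, 423, 457 and 623 FPKM, a difference of 1.14 (SE 0.17, adjusted p = 2.69e-06), with replicate 4 again the highest.

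Glutathione S-transferases, which join glutathione to reactive products, gave 31 rises and 29 falls of 140 genes, a split that turns under 2 of the alternative settings. The most abundant stood at 72.2, 68.9, 84.1 and 82.5 FPKM and 553, 624, 459 and 239 FPKM, a difference of 2.52 (SE 0.28, adjusted p = 7.43e-09). Respiratory burst oxidase homologs (RBOH), the membrane enzymes that make superoxide, were mostly not called. Of 23 genes, 2 fell and 21 were not called. The most abundant RBOH C gene stood at 132, 157, 152 and 136 FPKM and 100.3, 110.2, 151 and 119 FPKM, a difference of -0.28 (SE 0.19, adjusted p = 0.311) with a 95% interval of -0.67 to 0.11.

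Many heat shock protein genes remained above their start. Of 461 members, 159 rose and 32 fell, with a median of 0.63. The summed level was 3895 to 4389 FPKM at 0 h, 22649 to 34233 FPKM at 24 h and 6157 to 10051 FPKM at 24_3 h, so most of the sum gained by 24 h was gone after 3 h of air. The small heat shock proteins carried the rises. Of 143 genes, 100 rose and 2 fell, with a median of 3.81 beside 6.15 at 24 h, and 103 fell between 24 h and 24_3 h. The 70 kDa heat shock cognates, chaperones of unstressed cells too, gave 11 rises and 20 falls of 129, and without replicate 4 of 24_3 h the rises numbered 17. Those 11 rises, and the 159 of the list, include the heat shock cognate 1 match described above, whose protein name is doubtful. A heat shock cognate 70 kDa protein 2 gene stood at 586, 482, 520.3 and 693 FPKM at 0 h and 121, 154, 135 and 233 FPKM at 24_3 h, a difference of -1.86 (SE 0.24, adjusted p = 1.27e-07). Universal stress proteins, 18 genes, gave 3 rises and 4 falls, and their most abundant gene, PHOS34, stood at 11.9, 29.2, 10.6 and 6.91 FPKM and 1633, 1338, 1140.4 and 851 FPKM, a difference of 6.57 (SE 0.26, adjusted p = 5.59e-21).

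**Figure D3:**
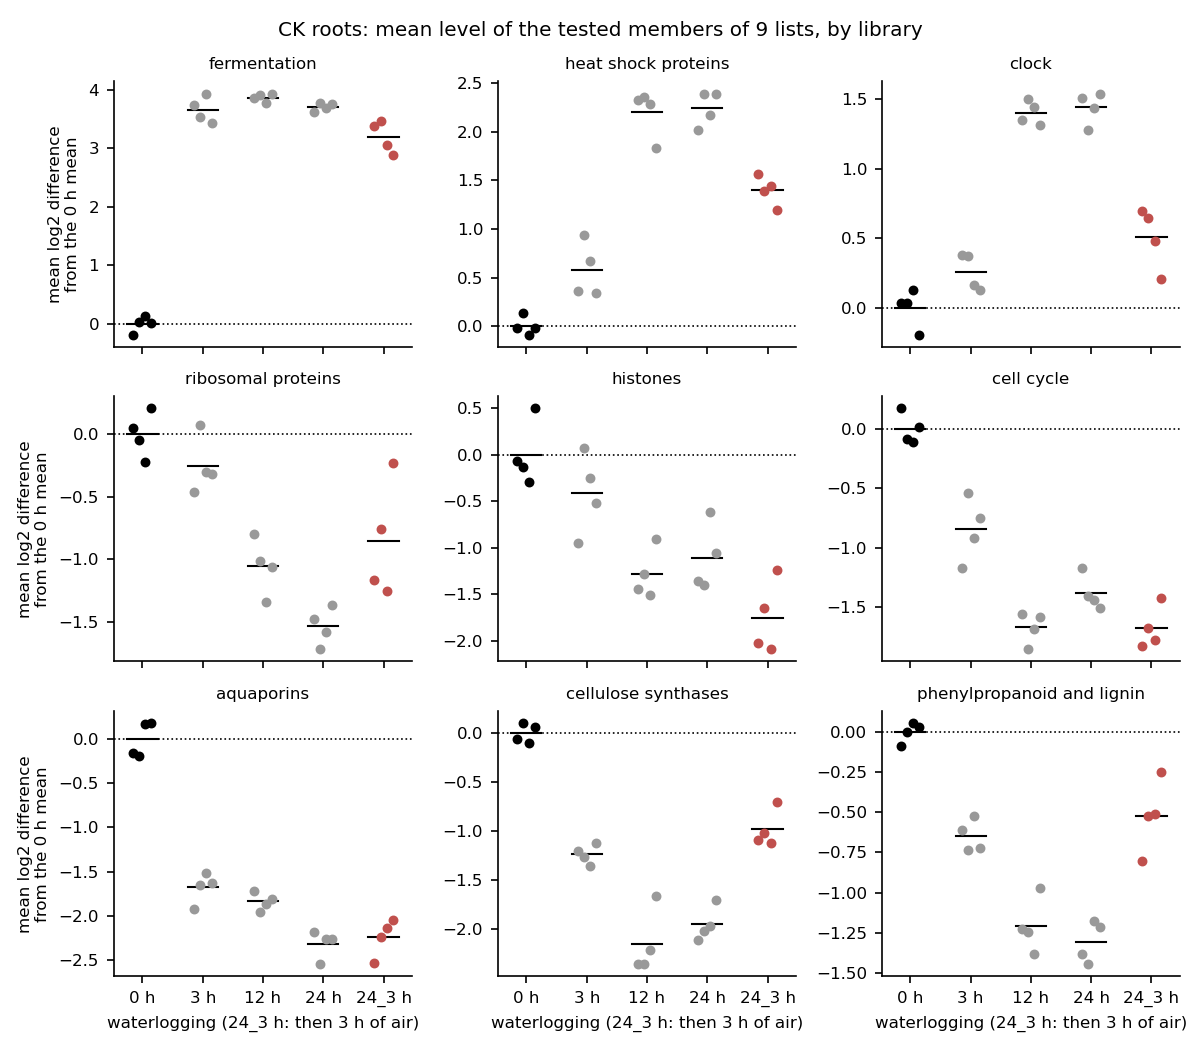
Mean log2 difference from the CK 0 h mean over the tested members of 9 gene lists, with 1 point for each of the 4 libraries at 0 h, after 3 h, 12 h and 24 h under water, and at 24_3 h (then 3 h of air). At 24_3 h the fermentation list lies at 2.89 to 3.48 in all 4 libraries, while the ribosomal list spreads from -1.25 to -0.23, with replicate 4 nearest to 0.

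Ribosomal proteins, the structural parts of the cytosolic ribosome, formed the longest list, and few of its genes rose. Of 837 members, 23 rose, 323 fell and 491 were not called, with a median of -1.04 beside -1.85 at 24 h. Large subunit (60S) proteins gave 189 falls of 451 and small subunit (40S) proteins 120 of 351, the latter 75 without replicate 3 of 24_3 h. A 60S ribosomal protein L5-1 gene stood at 524, 460, 381 and 602 FPKM at 0 h and 151, 175, 110.4 and 300.2 FPKM at 24_3 h, a difference of -1.50 (SE 0.28, adjusted p = 6.09e-05), where replicate 4 was the highest of its group. A 60S ribosomal protein L10 gene went against its list, from 197, 203, 185 and 306 FPKM to 1039, 1300.4, 932 and 789.9 FPKM, a difference of 2.19 (SE 0.21, adjusted p = 1.13e-10). The size of the list's shift depended on the library. The mean difference over its tested members was -1.17, -0.76, -1.25 and -0.23 in replicates 1 to 4, and leaving out 1 library at a time gave 220 to 417 falls, the most without replicate 4. The depth of replicate 4, its nearness to the 0 h libraries and its green tissue markers, with a mean difference of 1.15 against -0.80, -0.37 and -0.22 in replicates 1 to 3, move with this list, and their part in the result was not tested.

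Genes of cell division and of new chromatin were low together. Of 132 cell cycle genes, 13 rose and 80 fell, with a median of -2.25 beside -2.33 at 24 h. Among 53 A-, B- and D-type cyclins, which drive the cycle, 43 fell and 1 rose. Of 33 genes of the MCM helicase, which opens DNA for replication, 17 fell, as did 9 of 10 genes of the replication clamp PCNA. CDC20, an activator of the complex that ends mitosis, went the other way, with 12 rises and 4 falls of 23. The most abundant member, a cyclin-B1-2 gene, stood at 75.4, 76.6, 93.6 and 99.1 FPKM at 0 h, 12.1 ± 2.50 FPKM at 24 h and 29.5, 50.3, 39.4 and 56.4 FPKM at 24_3 h. Its difference, -1.004 (SE 0.27, adjusted p = 0.00351), lies on the 2-fold line and the call is lost under several settings.

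Histone genes differed by type. Of 353 histone genes, 11 rose and 206 fell, with a median of -1.79 beside -0.97 at 24 h, and 87 fell between 24 h and 24_3 h. The summed level was 6848 to 9803 FPKM at 0 h, 8748 to 11706 FPKM at 24 h and 5054 to 6126 FPKM at 24_3 h, so the 24_3 h libraries lay below both other groups. Histone H3.2, the form placed during DNA replication, gave 61 falls of 72 (median -2.57), while histone H3.3, the form placed outside replication, gave 1 rise of 18 (median 0.24). Histone H4 gave 48 falls of 77, H2A 52 of 79 and H2B 40 of 84. Linker histone H1, which binds DNA between nucleosomes, gave 8 rises and 4 falls of 21, and its most abundant gene stood at 146, 153, 141 and 155 FPKM and 625, 541, 440.4 and 415 FPKM, a difference of 1.75 (SE 0.19, adjusted p = 4.10e-09). The most abundant H2A.2 gene stood at 329.6, 325, 348 and 406 FPKM and 178, 201, 204 and 318 FPKM, a difference of -0.67 (SE 0.18, adjusted p = 0.00433) that is short of 2-fold. Histone messages of dividing cells lack a poly-A tail in animals but carry one in plants, so the poly-A selection used here takes them in.

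**Figure D4:**
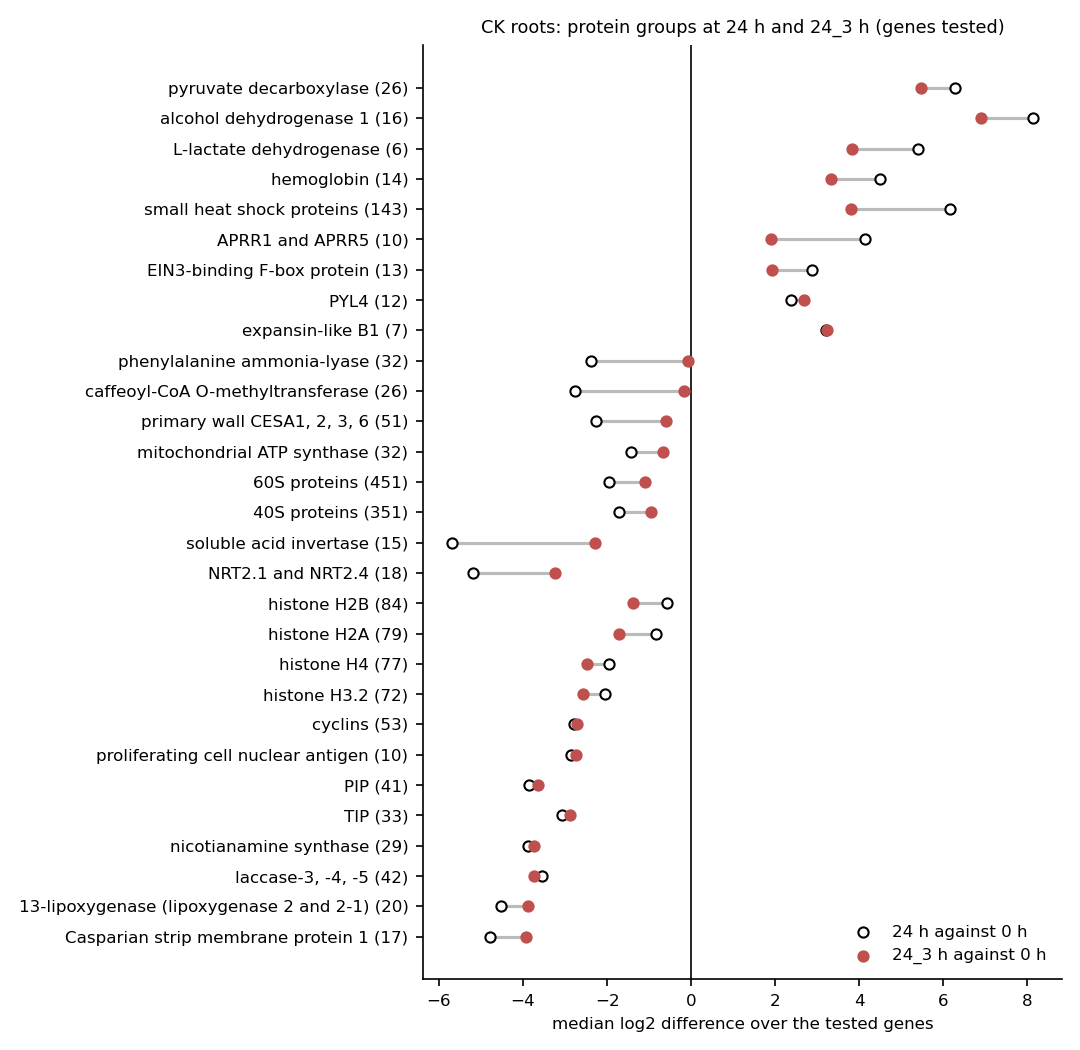
Median log2 difference from 0 h over the tested genes of protein groups in CK roots, at 24 h (open circles) and at 24_3 h (filled circles), with the number of genes in parentheses. Both comparisons use the same 0 h libraries; phenylalanine ammonia-lyase goes from -2.38 to -0.06, whereas histone H2B goes from -0.58 to -1.37.

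More genes of wall loosening fell than rose. Of 139 expansin and xyloglucan endotransglucosylase/hydrolase (XTH) genes, 22 rose and 63 fell. Alpha-expansins, which let walls stretch, gave 21 falls of 30 (median -2.45). All 7 expansin-like B1 genes, whose function is less well known, rose, and the most abundant stood at 25.6, 31.2, 35.8 and 41.7 FPKM at 0 h and 286, 272, 339 and 353 FPKM at 24_3 h, a difference of 3.23 (SE 0.15, adjusted p = 1.77e-18). Of 89 XTH genes, 15 rose and 32 fell, and one of the most abundant, XTH23, stood at 162, 232, 218 and 225 FPKM and 63.97, 77.3, 107 and 128 FPKM, a difference of -1.19 (SE 0.24, adjusted p = 1.52e-04).

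Fewer cellulose synthase genes of the primary wall were low at 24_3 h than at 24 h. Of 51 genes of the primary wall subunits, 36 were lower at 24 h (median -2.27), and 14 were lower and 1 higher at 24_3 h (median -0.60). Their summed level was 935 to 1096 FPKM at 0 h, 297 to 365 FPKM at 24 h and 654 to 722 FPKM at 24_3 h, below 0 h without overlap. Between 24 h and 24_3 h, 22 of them rose. The most abundant CESA1 gene stood at 106, 101, 119.9 and 117 FPKM at 0 h, 12.7 ± 4.56 FPKM at 24 h and 113, 93.7, 112 and 103 FPKM at 24_3 h, and its difference from 0 h was -0.07 (SE 0.29, adjusted p = 0.928) with a 95% interval of -0.65 to 0.51. A second CESA1 gene stood at 80.1, 77.2, 87.5 and 89.5 FPKM and 91.5, 77.9, 88.1 and 87.4 FPKM, with an interval of -0.48 to 0.57. The 0 h and 24_3 h values overlap in both genes. Secondary wall subunits gave 11 falls and 1 rise of 23.

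The phenylpropanoid pathway, which leads from phenylalanine to lignin and other phenolics, split between its entry and its end. Of 359 members, 54 rose and 105 fell, with a median of -0.34 beside -1.80 at 24 h, and 123 rose between 24 h and 24_3 h. Of 32 genes of phenylalanine ammonia-lyase (PAL), the entry enzyme, 28 were lower at 24 h, while at 24_3 h 1 was higher and 1 lower. The most abundant PAL1 gene stood at 687, 711, 822 and 738 FPKM at 0 h, 395 ± 95.3 FPKM at 24 h and 921, 847, 905 and 949 FPKM at 24_3 h, a difference of 0.29 (SE 0.14, adjusted p = 0.103) with a 95% interval of 0.02 to 0.57. All 4 libraries of 24_3 h lay above all 4 of 0 h in this gene, by less than 2-fold. Cinnamate 4-monooxygenase, the next enzyme, stood at 69.4, 82.001, 77.3 and 98.2 FPKM and 518, 558, 532 and 691 FPKM in its most abundant gene, a difference of 2.81 (SE 0.14, adjusted p = 2.20e-18).

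Later steps differed from one another. None of 26 genes of caffeoyl-CoA O-methyltransferase, a methylating enzyme of lignin units, was called by limma (median -0.17), and 0 higher and 1 lower had an unadjusted p of at most 0.05, whereas 24 had been lower at 24 h. Cinnamoyl-CoA reductase 1 gave 5 falls of 19, against 17 at 24 h, and 3 without replicate 2 of 24_3 h. Laccases 3, 4 and 5, oxidases that couple lignin units in the wall, stayed low, with 32 falls of 42 and a median of -3.75 beside -3.54 at 24 h. Laccase-14 gave 6 rises and 2 falls of 9. The words that chose the peroxidase list of 268 genes also took in 27 genes of ascorbate and glutathione peroxidases and of OVEREXPRESSOR OF CATIONIC PEROXIDASE 3, which are not of class III. The other 241, secreted class III peroxidases by their names, gave 50 rises and 84 falls, and the most abundant, peroxidase 42, stood at 1199, 1301, 1751 and 1589 FPKM and 39.6, 39.01, 37.6 and 75.3 FPKM, a difference of -4.98 (SE 0.25, adjusted p = 6.37e-18).

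Most water channel genes were low. Of 117 aquaporins, 3 rose and 74 fell, with a median of -2.36. Their summed level was 7932 to 10412 FPKM at 0 h, 3332 to 4233 FPKM at 24 h and 1600.2 to 2209 FPKM at 24_3 h, lower at each step without overlap. Gene by gene the list did not move one way between 24 h and 24_3 h, with 20 rises and 23 falls, and its median against 0 h had been -2.67 at 24 h. Of 41 PIP genes, the channels of the plasma membrane, 37 fell, and of 33 TIP genes, those of the vacuole, 24 fell and 3 rose. NIP genes, which also pass small solutes, gave 10 falls of 33. The most abundant PIP2-7 gene (chromosome 19, bases 45991696 to 45993440) stood at 1010.1, 880, 1068 and 1178 FPKM at 0 h, 573 ± 132 FPKM at 24 h and 205, 169.9, 252 and 254 FPKM at 24_3 h, a difference of -2.24 (SE 0.19, adjusted p = 6.69e-12). A PIP1-3 gene stood at 819, 775, 881 and 924 FPKM and 100.4, 118, 135 and 232 FPKM, a difference of -2.61 (SE 0.24, adjusted p = 8.98e-11). The most abundant TIP1-1 gene stood at 565, 538, 542 and 734 FPKM and 348, 289, 465 and 364 FPKM (-0.71, SE 0.29, adjusted p = 0.0586), which is not called although the groups do not overlap.

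Genes of nitrogen and iron uptake fell more often than they rose. Of 205 nitrate and ammonium genes, 38 rose and 73 fell. The high-affinity nitrate transporters NRT2.1 and NRT2.4 gave 16 falls of 18 (median -3.23), while nitrate and nitrite reductases, which turn nitrate into ammonium, gave 10 rises of 13 (median 1.43). NPF7.3, which in Arabidopsis loads nitrate into the xylem, stood at 135, 106, 147 and 190.2 FPKM at 0 h and 1.41, 0.785, 1.63 and 0.836 FPKM at 24_3 h, a difference of -6.87 (SE 0.35, adjusted p = 1.14e-17). Phosphate and sulfate genes gave 24 rises and 23 falls of 106, a split that turns under 7 settings. PHO1, which exports phosphate to the xylem, stood at 47.3, 42.4, 59.4 and 50.4 FPKM and 6.57, 6.98, 9.48 and 7.81 FPKM, a difference of -2.68 (SE 0.28, adjusted p = 1.67e-09).

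Of 79 iron genes, 9 rose and 45 fell, with a median of -2.06. Nicotianamine synthase, which makes the chelator that carries iron between cells, gave 26 falls of 29 (median -3.74). Ferritin-3, which stores iron, stood at 69.01, 72.01, 103 and 99.2 FPKM at 0 h, 299 ± 35.7 FPKM at 24 h and 60.9, 60.1, 67.4 and 82.3 FPKM at 24_3 h. Its groups of 0 h and 24_3 h overlapped (-0.33, SE 0.19, adjusted p = 0.214). Of 10 ferritin genes tested, 2 rose and 4 fell, with a median of -1.28. The summed ferritin level was 176 to 256 FPKM at 0 h and 107 to 155 FPKM at 24_3 h. Ferric reduction oxidase 7, which supplies iron to chloroplasts in Arabidopsis, stood at 4.46, 3.31, 5.34 and 5.90 FPKM and 22.9, 22.2, 21.3 and 11.6 FPKM, a difference of 2.00 (SE 0.34, adjusted p = 1.73e-05). Nitrogen recycling genes gave 8 rises and 10 falls of 51, with 5 rises without replicate 1 of 0 h or without replicate 1 of 24_3 h. Among them a gene of glutamate dehydrogenase B, which frees ammonium from glutamate, stood at 201, 171, 127 and 183 FPKM and 369.6, 316, 517 and 388 FPKM (1.22, SE 0.25, adjusted p = 1.93e-04), and one of glutamine synthetase, which binds ammonium, at 776, 613, 643 and 775 FPKM and 435, 554, 498 and 476 FPKM (-0.51, SE 0.24, adjusted p = 0.0991).

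More ethylene genes rose than fell. Of 71 members, 31 rose and 11 fell, with a median of 0.86. Of 13 EIN3-binding F-box genes, which limit the response by breaking down its main factor, 8 rose, and of 13 receptor genes, 7 rose and 1 fell. ACC synthase, the rate-limiting enzyme of ethylene synthesis, gave 8 rises and 4 falls of 15, and ACC oxidase, which needs oxygen for the last step, gave 4 and 6 of 17. An ACC oxidase 1 gene stood at 4.44, 18.998, 6.96 and 5.66 FPKM at 0 h and 314, 285, 349 and 242 FPKM at 24_3 h, a difference of 5.26 (SE 0.32, adjusted p = 2.15e-15), beside 309.7 ± 133 FPKM at 24 h. The most abundant ACC synthase gene stood at 261, 308, 357 and 337 FPKM and 299, 264, 296 and 179.6 FPKM, overlapping values (-0.30, SE 0.18, adjusted p = 0.215).

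Genes of abscisic acid were called in both directions, and those of jasmonate mostly as lower. Of 81 abscisic acid genes, 14 (17.3%) rose and 23 (28.4%) fell. Both shares were above those of all tested genes (10.2% and 15.9%), while the ratio of rises to falls was near theirs. All 12 genes of the receptor PYL4 rose, and the most abundant stood at 10.4, 15.3, 14.9 and 20.5 FPKM at 0 h and 131, 108, 135 and 107 FPKM at 24_3 h, a difference of 3.00 (SE 0.18, adjusted p = 1.71e-15). Of 8 genes of 9-cis-epoxycarotenoid dioxygenase, the rate-limiting step of synthesis, 7 fell, and CYP707A2, which breaks the hormone down, stood at 165, 202, 195 and 194 FPKM and 54.4, 59.1, 95.8 and 83.999 FPKM, a difference of -1.40 (SE 0.20, adjusted p = 1.02e-06). Of 157 jasmonate genes, 17 (10.8%) rose and 64 (40.8%) fell. All 20 genes matched to lipoxygenase 2 or 2-1, which start jasmonate synthesis, fell (median -3.88). Allene oxide cyclase, of the same route, stood at 167, 206, 198 and 219.9 FPKM and 20.8, 32.6, 30.2 and 56.9 FPKM, a difference of -2.58 (SE 0.33, adjusted p = 9.38e-08). The repressor TIFY 10A stood at 272, 342, 319.7 and 312 FPKM and 121, 118, 159.9 and 137 FPKM, a difference of -1.22 (SE 0.23, adjusted p = 7.38e-05).

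Auxin genes gave 25 rises (11.1%, near the share of all tested genes) and 63 falls (28%) of 225, with a median of -0.52. One of the 3 most abundant, the auxin carrier PIN5, went against that median. It stood at 9.64, 9.28, 14.6 and 13.8 FPKM at 0 h and 155, 120.2, 121 and 106 FPKM at 24_3 h, a difference of 3.41 (SE 0.22, adjusted p = 7.29e-15). Gibberellin genes gave 15 rises and 38 falls of 99. Gibberellin 2-beta-dioxygenase 1, which inactivates gibberellin, stood at 118, 166, 138 and 148 FPKM and 104, 104, 92.6 and 86.2 FPKM, a difference of -0.55 (SE 0.20, adjusted p = 0.0303) that is short of 2-fold, although the groups do not overlap.

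Transcription factor families were called at different rates. ERF and DREB factors, the group VII genes included, gave 41 rises and 92 falls (12.7% and 28.5%) of 323. WRKY factors of defence and stress gave 21 and 29 of 197, and these shares of 10.7% and 14.7% are near those of all tested genes. A WRKY41 gene stood at 279, 319.6, 314 and 312 FPKM and 37.8, 50.6, 66.3 and 84.9 FPKM, a difference of -2.41 (SE 0.49, adjusted p = 1.79e-04), whereas a WRKY40 gene, at 585 ± 80.5 FPKM at 24 h, stood at 252, 298, 280.1 and 307 FPKM at 0 h and 323, 262, 279 and 254 FPKM at 24_3 h, a difference of -0.03 (SE 0.14, adjusted p = 0.961) with a 95% interval of -0.31 to 0.26. NAC factors gave 23 rises and 23 falls of 149 (15.4% each), the falls near the share of all tested genes, where at 24 h there had been 54 and 17. The most abundant, NAC48, stood at 119, 134, 138 and 143 FPKM and 535, 415, 379.7 and 310 FPKM, a difference of 1.59 (SE 0.17, adjusted p = 3.63e-09).

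Circadian clock genes are named because the groups were taken at different times. Of 70 clock genes, 20 rose and 5 fell, and 9 of 10 genes of the pseudo-response regulators APRR1 and APRR5 were among the rises. At 24 h, a full day after the start, 33 of the 70 had been higher than at 0 h and 7 lower. Of the 10 APRR1 and APRR5 genes, 9 were higher at 24 h, with a median of 4.14 beside 1.90 at 24_3 h. REVEILLE 6, a MYB-like clock factor in Arabidopsis, stood at 22.4, 25.98, 18.96 and 12.5 FPKM at 0 h and 52.9, 52.6, 41.4 and 54.4 FPKM at 24_3 h, a difference of 1.37 (SE 0.18, adjusted p = 2.05e-07), and GIGANTEA, which links the clock to flowering, at 54.8, 58.1, 55.7 and 48.6 FPKM and 45.7, 48.01, 41.6 and 35.6 FPKM (-0.35, SE 0.14, adjusted p = 0.0609). In 24_3 h against 0 h the hour of sampling and the treatment cannot be told apart, and their parts were not tested. Autophagy genes gave 5 rises and 6 falls of 81, a split that turns under 6 settings, with 3 rises and 3 falls without replicate 1 of 24_3 h and 8 rises without replicate 2 or without replicate 4, and late embryogenesis abundant proteins 1 and 2 of 9.

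Markers of the labelled tissue were present at 0 h and low at 24_3 h. Of 29 root marker genes, 21 fell and the rest were not called, with a median of -3.35, and their summed level was 131 to 188 FPKM at 0 h, 18.4 to 25.7 FPKM at 24 h and 27.01 to 39.4 FPKM at 24_3 h. Casparian strip membrane protein 1, of the endodermal barrier, gave 15 falls of 17. Cytochrome P450 86A1, which makes suberin acids, gave 3 of 3, and its most abundant gene stood at 19.2, 17.4, 28.7 and 26.9 FPKM and 0.528, 0.478, 0.234 and 2.04 FPKM, a difference of -4.99 (SE 0.61, adjusted p = 3.59e-08). SHORT-ROOT, a factor that patterns the root, stood at 9.94, 16.1, 12.9 and 13.8 FPKM and 10.7, 11.9, 8.40 and 9.45 FPKM, overlapping values (-0.37, SE 0.25, adjusted p = 0.282). In bulk tissue, fewer cells of a type and less RNA per cell cannot be told apart.

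Green tissue markers were found at 0 h, 24 h and 24_3 h. Their summed level over 252 genes was 60.8 to 193 FPKM at 0 h, 155 to 698 FPKM at 24 h and 84.6 to 254 FPKM at 24_3 h. Of 92 tested, 3 rose and 2 fell, a split that turns under 4 settings, and without replicate 4 of 24_3 h 7 fell. At 24 h, 22 of the 92 had been higher than at 0 h and 6 lower, with a median of 0.63. The mean difference over the tested markers was -0.80, -0.37, -0.22 and 1.15 in replicates 1 to 4 of 24_3 h, so the library that stood apart had the highest mean of these markers in its group. A Rubisco small subunit gene stood at 2.05, 4.71, 3.61 and 3.94 FPKM and 32.2, 26.8, 20.3 and 29.1 FPKM, a difference of 2.93 (SE 0.39, adjusted p = 2.31e-07). The part of these markers in the other results was not tested.

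Some genes at 24_3 h lay outside the whole CK course. All 4 libraries of 24_3 h lay above the 16 libraries of all earlier CK times for 782 genes (0.874%) and below them for 352 (0.393%), and 269 (0.301%) and 231 (0.258%) of these were also called against 0 h. The named genes were taken by the width of the gap, so their values are a description. 4-coumarate-CoA ligase 2, which activates the acids of the phenylpropanoid route, stood at 17.1, 15.6, 19.7 and 27.3 FPKM at 0 h, 7.60 ± 1.13 FPKM at 24 h and 86.5, 80.3, 97.3 and 89.2 FPKM at 24_3 h. Protein disulfide isomerase-like 1-4, a folding enzyme of the endoplasmic reticulum, stood at 7.35, 6.32, 5.87 and 9.52 FPKM, 6.86 ± 1.76 FPKM and 36.5, 33.8, 47.3 and 29.6 FPKM. The metal transporter Nramp3, which in Arabidopsis releases iron from the vacuole, stood at 10.97, 10.96, 8.59 and 10.7 FPKM, 12.95 ± 2.59 FPKM and 38.02, 40.8, 43.3 and 47.3 FPKM. The 24 h mean lay below the 0 h values for the ligase, within them for the isomerase and slightly above them for Nramp3, and all 3 rose between 24 h and 24_3 h. A 21 kDa protein with a pectin methylesterase inhibitor domain reached 69.02, 66.9, 78.8 and 57.05 FPKM, endoglucanase 6 reached 22.5, 27.5, 29.8 and 16.5 FPKM and the UDP-glucose 4-epimerase GEPI48, of wall sugar supply, reached 18.9, 22.02, 28.7 and 14.6 FPKM.

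Among genes below the course, aquaporin PIP2-7 on chromosome 21 stood at 199, 166, 212 and 239.6 FPKM at 0 h, 91.8 ± 21.4 FPKM at 24 h and 26.1, 25.6, 29.3 and 25.1 FPKM at 24_3 h. ACR4, an ACT domain protein, stood at 83.5, 111, 98.5 and 92.2 FPKM, 106 ± 16.3 FPKM and 24.7, 25.8, 25.9 and 21.003 FPKM. A probable alpha-mannosidase, which trims sugars from proteins, stood at 12.5, 10.3, 10.97 and 9.43 FPKM, 11.2 ± 1.68 FPKM and 2.96, 3.14, 3.32 and 3.07 FPKM. For ACR4 and the alpha-mannosidase the 24 h mean lay inside the 0 h range, and the low values were found after reoxygenation. A TIP-type aquaporin (RB7-5A) reached 8.82, 7.99, 11.7 and 9.65 FPKM, a histone H2A.1 gene 2.61, 5.51, 3.46 and 5.37 FPKM and PSK SIMULATOR 2, a growth regulator in Arabidopsis, 10.4, 7.32, 8.14 and 7.41 FPKM.

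**Figure D5:**
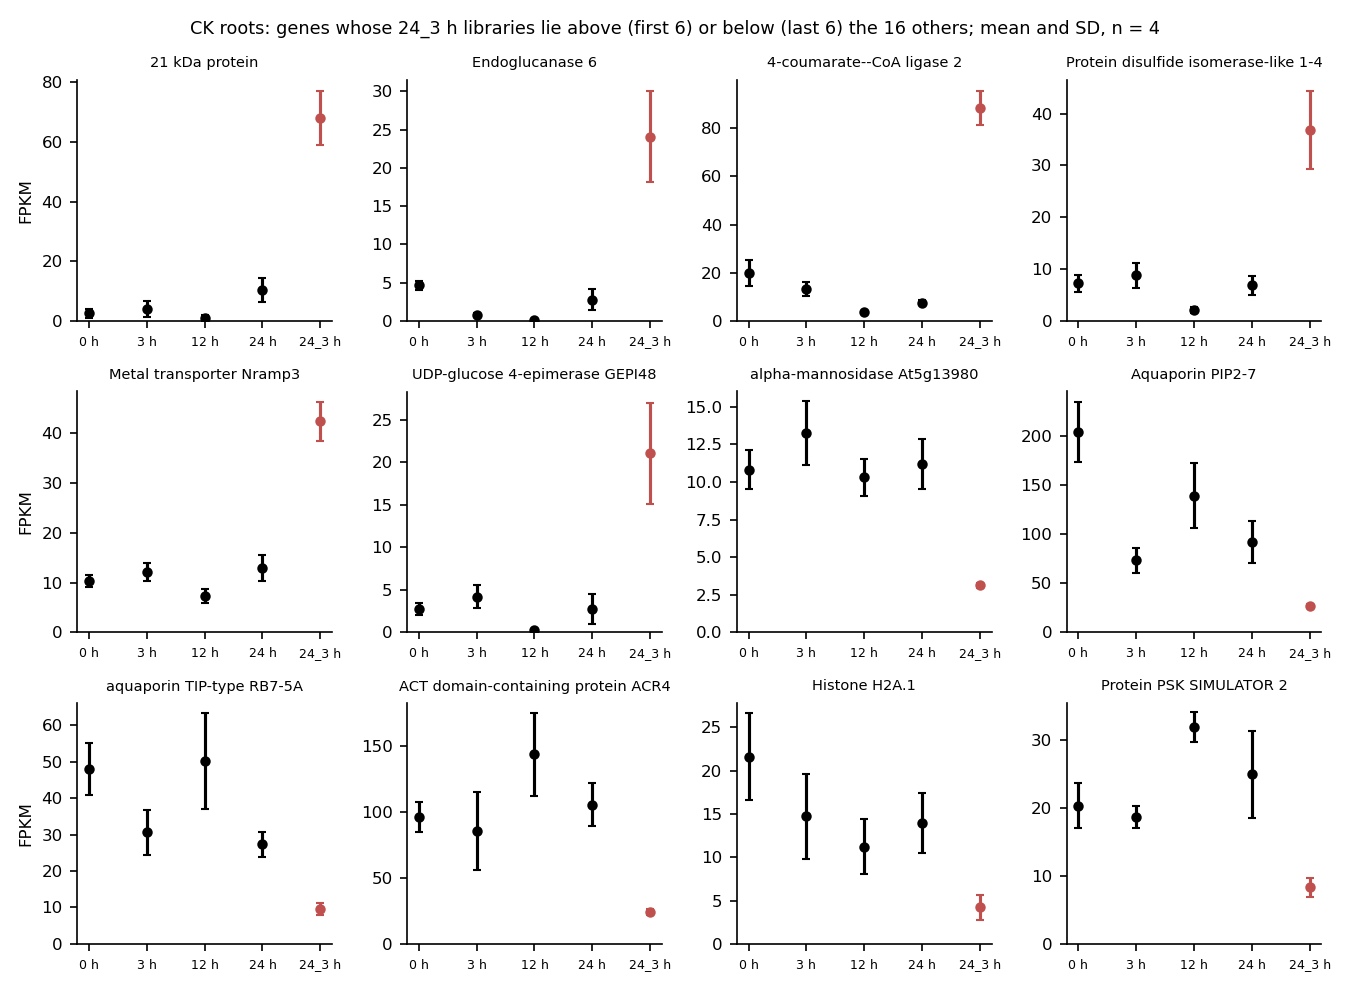
FPKM of 12 genes in CK roots at 0 h, after 3 h, 12 h and 24 h under water, and at 24_3 h. Each point is the mean of 4 libraries with the SD, single libraries are not drawn, and all axes start at 0. In the first 6 genes the 24_3 h libraries lie above the 16 others, and in the last 6 they lie below them.

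The same comparison in EWT roots gave 8173 rises (9.13%) and 10859 falls (12.1%). A limma interaction term, the CK difference minus the EWT difference, was called at a 2-fold size and an adjusted p of at most 0.05. It was positive for 997 genes (1.11%) and negative for 1639 (1.83%). Of 89 XTH genes, 18 had a negative term, the lower difference in CK. XTH23 stood at 31.4 ± 6.77 FPKM at 0 h and 63.3 ± 8.49 FPKM at 24_3 h in EWT (SD, n = 4), against 209 ± 32.02 and 94.1 ± 28.9 FPKM in CK, which started from the higher level, an interaction of -2.22 (SE 0.34, adjusted p = 7.36e-05). The 3 most abundant RBOH C genes, short of 2-fold in CK, had interactions of -1.63 (SE 0.27, adjusted p = 2.85e-04), -1.15 (SE 0.32, adjusted p = 0.0351) and -1.51 (SE 0.31, adjusted p = 0.00310). The first of these genes was at a lower level in EWT, where it stood at 34.1 ± 7.06 FPKM at 0 h and 86.95 ± 15.5 FPKM at 24_3 h.

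Further genes had a difference from 0 h that was not the same in the cultivars. That of monodehydroascorbate reductase was higher in CK by 1.69 (SE 0.25, adjusted p = 4.11e-05), with EWT at 214 ± 39.2 FPKM at 0 h and 148 ± 40.6 FPKM at 24_3 h. Nramp3 differed by 1.65 (SE 0.25, adjusted p = 7.38e-05) and ACR4 by -1.75 (SE 0.30, adjusted p = 4.50e-04), and both lay further from their 0 h level in CK. CYP707A2 differed by -1.50 (SE 0.29, adjusted p = 0.00152), and the PAL1 gene on chromosome 22, at 281, 307, 332 and 351 FPKM and 363, 357, 377 and 377 FPKM in CK, differed by -1.05 (SE 0.19, adjusted p = 7.97e-04). For the fermentation list, 4 genes of 66 had the higher difference in CK by this test and 1 the lower. The pyruvate decarboxylase 2 gene described above was among those 4 (1.10, SE 0.28, adjusted p = 0.0193).

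EWT roots at 24 h share no library with the CK comparison, though one limma model with a common gene variance and a common filter gave both. Of 17286 genes higher in EWT at 24 h (19.3% of those tested), 6088 (35.2%) rose in CK at 24_3 h and 278 (1.61%) fell, and these 6088 made up 66.6% of the CK rises. Of 23889 genes lower in EWT at 24 h (26.7%), 10346 (43.3%) fell in CK and 160 (0.670%) rose, and the 10346 made up 72.8% of the CK falls. Of 48342 genes that EWT at 24 h did not call, 2890 (5.98%) rose and 3593 (7.43%) fell. The CK calls after reoxygenation were found mostly among genes that the other cultivar had moved in the same direction during flooding.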

How the data were processed

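Poly-A mRNA of chrysanthemum roots was sequenced in 40 libraries, and the 8 of CK 0 h and CK 24_3 h were compared. The deposited values are FPKM for 178540 genes, made by the authors. The submitters' processing notes name fastp, HISAT2 2.0.5 and featureCounts 1.5.0-p3, and the genome build, the strand setting and the treatment of reads shared between copies are not given in the sources used here. Methods and labels differ in the light and temperature regime. FPKM multiplied by gene length gave whole fragments for 100% of values within 0.01 of a fragment, so depth and counts of fragments are known. Precision from these counts covers counting error only.

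The 89517 genes that reached 1 FPKM in 4 or more libraries were fitted with limma 3.58.1 in R 4.3.3 on log2(FPKM + 0.1), with 10 group means over all 40 libraries and an intensity trend. For DEGs the limits were a 2-fold difference and p at or under 0.05 before adjustment, and calls on single genes and lists used Benjamini-Hochberg adjusted p over all tested genes. The pipeline was tested on simulated data. For a gene at 0 in a group, a fold is a bound against 3 fragments over the group, and for 1 to 3 fragments a ratio with its 95% Poisson interval is given.

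Genes were named by a rule: the 8 largest rises and 8 largest falls with separate groups, a mean FPKM of at least 10 in the higher group and a protein name, the 6 with the widest gap above and the 6 below the other 16 CK libraries, up to 3 of the highest members of each list, and 2 unnamed genes in each direction. The genes, lists and tests were chosen with earlier results of these data known, and the sub-groups of lists were formed after their values were seen. Alternatives varied the pseudocount (1 and 0.01), the filter, the scaling, the fold, the weights, the trend, the replicate block, the libraries fitted and each library left out. Sequences were not used here.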

Additional observations from a re-analysis of the deposited data

Results flagged for a closer look

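In groups of 4 libraries, 1 library stood far from the other 3 in 16 of 179 groups of the genes described (8.94%). A chance rate of about 1 in 20 does not hold here, since a library above 0 is always marked where the other 3 are at 0. That was so for early nodulin-93 and the heat shock cognate 1 match at 0 h. It was also so for flavonoid 3',5'-hydroxylase and XTH6 at 24_3 h. Of the 16 marked groups, 9 were marked for replicate 4 of CK 24_3 h, 2 for replicate 3 of CK 24_3 h and the others lay at 0 h. Replicate 4 of 24_3 h stood at 546 FPKM and 364 FPKM in the RAP2-2 genes, 623 FPKM in monodehydroascorbate reductase, 186 FPKM in catalase, 75.3 FPKM in peroxidase 42, 11.6 FPKM in ferric reduction oxidase 7, 2.04 FPKM in cytochrome P450 86A1, 125 FPKM in ATP synthase subunit beta and 0.351 FPKM in XTH6. Replicate 3 of 24_3 h stood at 41.4 FPKM in REVEILLE 6 and 0.238 FPKM in flavonoid 3',5'-hydroxylase. At 0 h, replicate 2 stood at 1.09 FPKM in early nodulin-93, and in replicates 3 and 4 the values that stood apart were 0.285 FPKM in the heat shock cognate 1 match, 8.59 FPKM in Nramp3, 306 FPKM in ribosomal protein L10 and 734 FPKM in TIP1-1. Replicate 4 was the most deeply sequenced library of its group, and its part in these values was not tested.

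The difference between 24_3 h and 0 h was not the same in CK and EWT for 16 of 94 genes described, by limma's interaction term. The CK difference exceeded that of EWT by 1.11 (log2) for protein disulfide isomerase-like 1-4, 1.65 for Nramp3, 1.10 for pyruvate decarboxylase 2, 1.69 for monodehydroascorbate reductase and 1.49 for glutamine synthetase. It lay below that of EWT, with differences of -1.10 for the PIP2-7 gene on chromosome 21, -1.75 for ACR4, -1.31 for PSK SIMULATOR 2, -1.63, -1.15 and -1.51 for the RBOH C genes, -2.22 for XTH23, -1.50 for CYP707A2, -1.05 for the PAL1 gene on chromosome 22, -1.62 for chitin-inducible gibberellin-responsive protein 1 and -1.32 for gibberellin 2-beta-dioxygenase 1.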

How the results depend on the processing

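Under a pseudocount of 1 the DEGs were 5919 higher and 10743 lower, the adjusted rises 5826 and the interaction calls 4025, against 2636 as reported. With a fold of at least 4 they were 4765 and 8881, with 4470 adjusted rises, 8447 adjusted falls and 1674 interaction calls, since fewer genes reach that size, and array weights gave 4665 interaction calls. The cause of the shifts at a pseudocount of 1 and under array weights was not tested. Leaving out 1 library at a time gave 9926 to 11655 DEGs higher and 15372 to 17958 lower, 7934 to 9826 adjusted rises, 12209 to 15027 adjusted falls and 2067 to 3110 interaction calls. The correlations of same-numbered deviations were 0.029, -0.014, 0.005 and 0.026, beside -0.039 to 0.018 for differently numbered libraries. Such small values cannot show whether the replicate numbers pair the libraries. With a replicate block there were 10836 and 16883 DEGs, 9111 and 14208 adjusted calls and 2549 interaction calls.

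Of 91 called named genes, 26 are short of 4-fold and lose the call at that limit. Under all other settings 88 kept the call, 3 lost it under at least 1 and none reversed. Endoglucanase 6 lost it at a pseudocount of 0.01, peroxidase 47 when any 1 of replicates 1 and 2 of either group was left out, and cyclin-B1-2, at the 2-fold line, under several settings. Of 36 lists, 5 had the larger direction turn under at least 1 setting, namely alanine and GABA, glutathione S-transferases, phosphate and sulfate uptake, autophagy and green tissue markers. Of 72 list counts, 38 moved by over 1.5 times at 4-fold, 12 at a pseudocount of 1 and 2 to 8 when 1 library was left out, most of them counts of 3 genes or fewer. The median-of-ratios scaling and the fit of the 8 libraries alone were not run for the interaction. The pair of groups at 4 libraries each limits single-gene exact tests to p = 0.0286, and genes near 0 rest on few fragments.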
